A study of Mus musculus with 6 samples.

Results

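The mitotic genes of Panc02 tumours had higher mean levels in mice lacking annexin A1 in myeloid cells, and the DNA replication genes lay closer together between the groups, but none of these differences passed the test over all genes. The genes described here are 45 cell cycle genes chosen by name from the 17352 genes of the deposited table: 18 of S phase and the G1/S transition, 21 of G2 and mitosis, 3 D-type cyclins and 3 inhibitors of cyclin-dependent kinases (CDKs). All 45 are listed in the table, and all 45 passed the filter on low values (a mean of at least 0.5 FPKM, fragments per kilobase of exon, scaled to library depth), among 12257 genes that did.

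The libraries are whole-tumour RNA of 6 tumours, collected 4 weeks after Panc02 cells, a mouse pancreatic cancer line, were put under the skin. The hosts of 3 tumours were Anxa1ΔMɸ mice, in which myeloid cells lack annexin A1, and those of the other 3 were Anxa1flox/flox mice, which the labels call wild type. They are called deficient (libraries 3, 4 and 5) and wild type (libraries 2, 3 and 5), by the numbers in their labels, which also carry the letters HFD without defining them. The same line was implanted in both groups. Which promoter drives the Cre, and the age and strain of the mice, the sources used here do not give. The labels do not name the animals, so p-values measure the spread between these samples. Values of the 3 libraries of a group are always given in the order of those numbers.

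The spacing of the FPKM values gave back whole fragments for 95.3% of genes (tolerance 0.001) and for all 45 members, with implied totals of 37500000 to 41100000 fragments a library. Anxa1 reached 249.9, 330.2 and 290.5 FPKM with deficient hosts, next to 341.8, 354.4 and 394.2 FPKM with wild-type hosts, so that each deficient library lay below each wild-type one (log2 fold change -0.33, SE 0.12, limma adjusted p = 0.268). Of 8 markers of pancreatic cancer epithelium, the keratins Krt8 and Krt18 had mean FPKM of 240.9 and 231.9 in deficient and 228.0 and 222.7 in wild-type tumours. Others of the 8 differed more, with Epcam at 3.29 against 0.245, Cdh1 at 8.37 against 4.96 and Sox9 at 9.18 against 12.4 mean FPKM, each without overlap between groups. These were the only 3 of the 8 without overlap, beside 20.1% of all tested genes. With limma 0 of the 8 were called (lowest adjusted p = 0.081). The groups also differed in the Y-linked gene Ddx3y (mean FPKM 0.0566 against 5.06, limma adjusted p = 0.00903), named after its values were seen, and what this gene marks and the genotype cannot be told apart.

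A dividing cell first commits to replication in G1, when D-type cyclins with their kinases inactivate the retinoblastoma protein and free E2F factors to switch on the genes of S phase. After replication, the MuvB complex with B-Myb and FOXM1 switches on a later wave of genes for spindle assembly and chromosome segregation, many of which carry a promoter element called the cell cycle genes homology region (CHR). Because most cells of a tumour that are dividing express both waves in turn, their RNA in bulk tissue is widely used as a measure of how much of it is proliferating. In such bulk samples, fewer cells of a type and less RNA per cell cannot be told apart.

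All 21 G2/M genes had a positive log2 fold change (deficient minus wild type, on the scale of log2(FPKM + 1)), from 0.12 to 0.56 with a median of 0.30, where all tested genes had a median of 0.02 and 54.7% were positive. In mean FPKM, deficient tumours stood at 1.09 to 1.47 times the wild-type level. With limma and Benjamini-Hochberg adjustment over all 12257 genes, 0 of the 21 passed an adjusted p of 0.05, a level that 1.21% of all genes passed (0.979% higher and 0.228% lower), and the lowest adjusted p among them was 0.187. Limma with voom on the recovered fragments also called 0. At an unadjusted p under 0.05, 12 of the 21 were higher, beside 9.86% of all tested genes. These gene counts rest on correlated genes in 6 tumours.

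**Figure D1:**
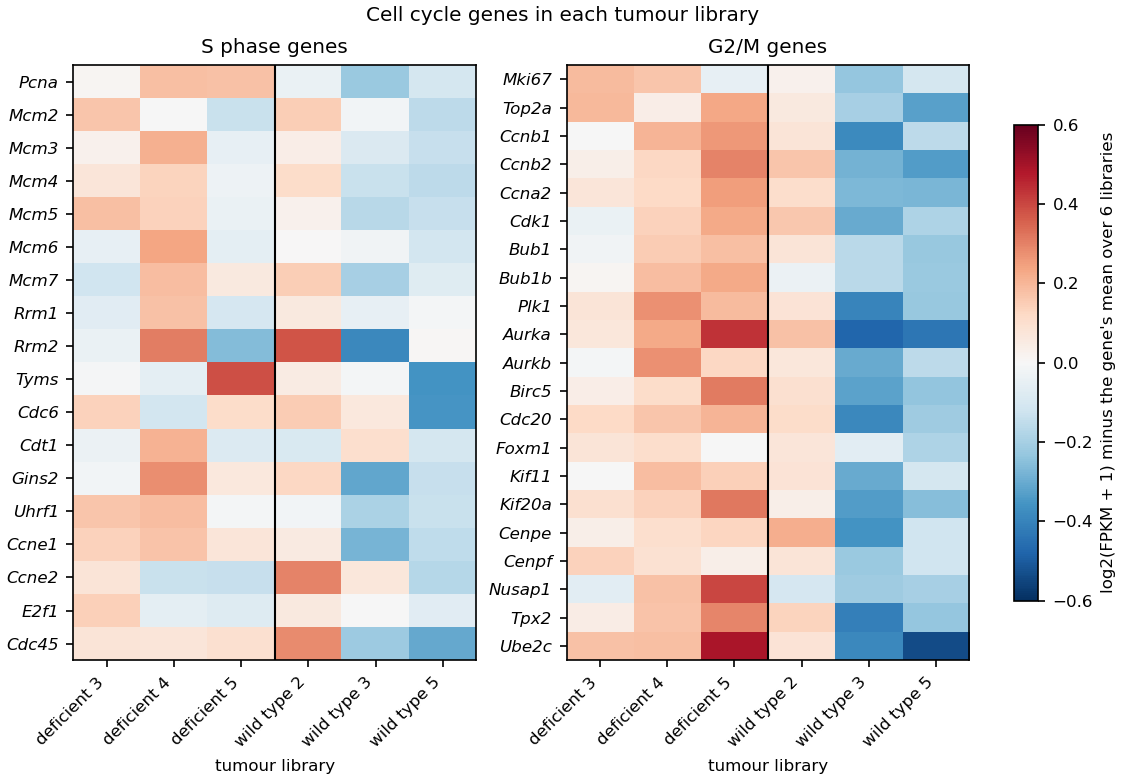
Heat map of the 18 S phase and 21 G2/M genes (rows) in the 6 libraries (columns), coloured by log2(FPKM + 1) minus each gene's mean over the libraries. The G2/M block is low in wild type 3 and 5 for all 21 genes, while wild type 2 resembles the deficient libraries.

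The wild-type libraries did not form one level. In all 21 G2/M genes, wild type 3 and wild type 5 both lay below every deficient library, an arrangement found in 22.7% of all tested genes. Wild type 2 was the highest of the wild-type libraries in each of the 21, at 1.08 to 1.60 times the mean of the other two (median 1.28), and in 16 of them it lay above at least 1 deficient library. The groups therefore failed to overlap in 5 G2/M genes only, Bub1b, Cdc20, Kif20a, Nusap1 and Ube2c, all with the deficient libraries above, beside 11.8% of all tested genes. Deficient 5 was the highest library for 14 of the 21 and wild type 3 the lowest for 14. Without wild type 2 the median log2 fold change of the G2/M genes was 0.42 and 19 of 21 had an unadjusted p under 0.05, and without wild type 3 these values were 0.22 and 1. That count was 2 without wild type 5, 2 without deficient 5, 3 without deficient 4 and 9 without deficient 3. In each of these fits 0 of 45 members were called.

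Among the enzymes that end mitosis, Ube2c had the largest fold change of the G2/M genes. It encodes the ubiquitin-conjugating enzyme of the anaphase-promoting complex, which marks cyclin B and securin for destruction. It measured 63.6, 64.0 and 79.4 FPKM in the deficient tumours, compared with 59.7, 42.8 and 38.5 FPKM in the wild-type ones. All deficient libraries were above all wild-type ones, and wild type 2 came within a few units of deficient 3. The means were 69.0 ± 9.01 and 47.0 ± 11.2 (SD, n = 3), and the log2 fold change 0.56 (SE 0.17, limma adjusted p = 0.187). Exons of Ube2c overlap those of Tnnc2, a muscle troponin gene on the other strand, but Tnnc2 had at most 113 fragments in a library, where Ube2c had at least 1395. Cdc20, the activator that targets the same complex, measured 37.3, 38.5 and 39.6 FPKM in the deficient tumours, compared with 37.1, 26.0 and 29.4 FPKM in the wild-type ones. The deficient values were close together, and of the wild-type libraries wild type 2 nearly reached them (log2 fold change 0.33, SE 0.13, adjusted p = 0.296).

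In the mitotic kinases too, wild type 3 and 5 were the lowest libraries. Aurka, the kinase of centrosome maturation, reached 14.8, 16.6 and 19.3 FPKM with deficient hosts, next to 16.0, 9.83 and 10.1 FPKM with wild-type hosts. Here wild type 2 lay above deficient 3, and the other wild-type libraries were far lower (log2 fold change 0.49, SE 0.19, adjusted p = 0.280). Plk1, which drives entry into mitosis and centrosome separation, reached 28.0, 32.3 and 30.4 FPKM with deficient hosts, next to 28.1, 19.9 and 22.5 FPKM with wild-type hosts (log2 fold change 0.36, SE 0.13, adjusted p = 0.258). Aurkb, the kinase of the chromosomal passenger complex, was at 0.26 and its partner Birc5 (survivin) at 0.31, both with overlapping groups. The spindle checkpoint kinases Bub1 and Bub1b were at 0.21 and 0.28. Bub1b measured 16.3, 18.4 and 19.0 FPKM in the deficient tumours, compared with 15.7, 14.3 and 13.6 FPKM in the wild-type ones, without overlap (adjusted p = 0.233).

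Cyclins and their mitotic kinase were close to one another in size of difference. Ccnb1, Ccnb2 and Ccna2, the cyclins that activate Cdk1, stood at log2 fold changes of 0.31, 0.30 and 0.29, and Cdk1 itself at 0.22 (adjusted p 0.310 to 0.493). Ccnb1 reached 29.1, 33.6 and 35.0 FPKM with deficient hosts, next to 30.7, 22.0 and 26.0 FPKM with wild-type hosts. Again only wild type 2 reached the deficient range.

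Promoter windows from RefSeq (GRCm38.p6, 250 bases before to 50 after the start site) matched 35 of the 45 members, with 40 windows. Not in that table are Aurkb, Ccna2, Ccnd1, Ccnd2, Ccne2, Foxm1, Gins2, Kif20a, Mcm4 and Tpx2. A CHR (TTTGAA or TTCGAA, either strand) lay in the window of 12 of 16 G2/M genes and 3 of 15 S phase genes, against 19.2% of all 32851 promoters and 16.6% of the tested genes with a window. An E2F motif (TTTGGCGC, TTTCCCGC, TTTGGCGG or TTTCCCGG, either strand) lay in 6 of 15 S phase genes and 1 of 16 G2/M genes (Birc5), against 3.32% of all promoters and 6.63% of tested genes. A CCAAT box was found in 14 of 16 G2/M genes and 10 of 15 S phase genes, against 37.4% of all promoters and 43.0% of tested genes. Such matches describe letters and not binding, and a window without a match says nothing of the factor. The 160 bases before the start site are shown for 4 G2/M genes whose CHR lies just before it and for 3 S phase genes with an E2F motif. Capitals mark the CHR (first 4 sequences) or the E2F motif (last 3) and any CCAAT box, read on either strand.
Ube2c: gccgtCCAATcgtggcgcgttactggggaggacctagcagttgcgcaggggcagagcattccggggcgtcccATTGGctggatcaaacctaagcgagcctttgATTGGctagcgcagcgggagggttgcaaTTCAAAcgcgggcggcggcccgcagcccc
Cdc20: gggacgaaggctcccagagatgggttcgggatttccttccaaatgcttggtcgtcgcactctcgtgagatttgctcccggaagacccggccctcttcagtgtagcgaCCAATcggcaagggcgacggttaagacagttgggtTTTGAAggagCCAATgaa
Cdk1: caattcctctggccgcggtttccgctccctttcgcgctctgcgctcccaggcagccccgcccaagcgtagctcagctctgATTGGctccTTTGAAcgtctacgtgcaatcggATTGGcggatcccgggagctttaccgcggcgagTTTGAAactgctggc
Kif11: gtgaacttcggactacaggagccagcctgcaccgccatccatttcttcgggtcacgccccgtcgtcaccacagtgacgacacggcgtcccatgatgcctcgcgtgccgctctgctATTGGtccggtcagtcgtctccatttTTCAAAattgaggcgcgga
Mcm5: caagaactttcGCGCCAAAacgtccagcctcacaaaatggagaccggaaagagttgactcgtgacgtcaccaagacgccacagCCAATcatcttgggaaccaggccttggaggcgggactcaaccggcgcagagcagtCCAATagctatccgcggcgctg
Mcm6: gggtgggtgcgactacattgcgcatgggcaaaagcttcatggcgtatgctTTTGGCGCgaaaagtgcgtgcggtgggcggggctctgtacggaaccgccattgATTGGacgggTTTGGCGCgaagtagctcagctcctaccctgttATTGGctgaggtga
Cdc6: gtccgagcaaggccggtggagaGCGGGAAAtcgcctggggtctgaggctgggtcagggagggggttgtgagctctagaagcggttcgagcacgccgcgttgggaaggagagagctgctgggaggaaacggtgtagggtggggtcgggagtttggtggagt
In GRCm38.p6 these stretches lie at chr2:164769769-164769928 (plus strand) for Ube2c, chr4:118437344-118437503 (minus strand) for Cdc20, chr10:69352913-69353072 (minus strand) for Cdk1 and chr19:37376222-37376381 (plus strand) for Kif11. Those of the S phase genes lie at chr8:75109349-75109508 (plus strand) for Mcm5, chr1:128359706-128359865 (minus strand) for Mcm6 and chr11:98907991-98908150 (plus strand) for Cdc6. In the 4 G2/M promoters a CHR begins 29, 18, 15 and 19 bases before the start site in the order shown, with a CCAAT box or its complement upstream of it in each. Cdk1 holds a second CHR, 71 bases before its start site.

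Genes of the spindle and the centromere followed the kinases. Kif20a, a kinesin of the central spindle needed for cytokinesis, measured 21.1, 21.7 and 24.7 FPKM in the deficient tumours, compared with 20.1, 15.4 and 16.3 FPKM in the wild-type ones. The groups did not overlap (log2 fold change 0.37, SE 0.12, adjusted p = 0.207). Nusap1, which bundles spindle microtubules, measured 15.1, 18.0 and 21.1 FPKM in the deficient tumours, compared with 14.7, 13.5 and 13.6 FPKM in the wild-type ones, so that the deficient libraries were spread out and the wild-type ones were not (0.34, SE 0.12, adjusted p = 0.260). Tpx2, the activator of Aurora A on the spindle, stood at 0.34, the spindle motor Kif11 at 0.22, and the kinetochore proteins Cenpe and Cenpf at 0.17 and 0.17, all with overlapping groups.

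The usual histological marker of proliferation lay below the median of the G2/M genes in size of difference. Mki67, which encodes the Ki-67 antigen, reached 25.6, 25.2 and 21.5 FPKM with deficient hosts, next to 22.7, 18.9 and 20.7 FPKM with wild-type hosts. Deficient 5, the highest library for most G2/M genes, was here the lowest of the deficient libraries and lay below wild type 2 (log2 fold change 0.21, SE 0.10, adjusted p = 0.413). Top2a, the topoisomerase that untangles sister chromosomes, was the most abundant G2/M gene per length, with 82.1, 73.7 and 84.4 against 74.5, 62.2 and 56.8 FPKM (0.31, SE 0.11, adjusted p = 0.263). Foxm1, the factor that drives this wave, had the smallest fold change of the 21, at 0.12 (95% confidence interval -0.10 to 0.34, adjusted p = 0.612).

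**Figure D2:**
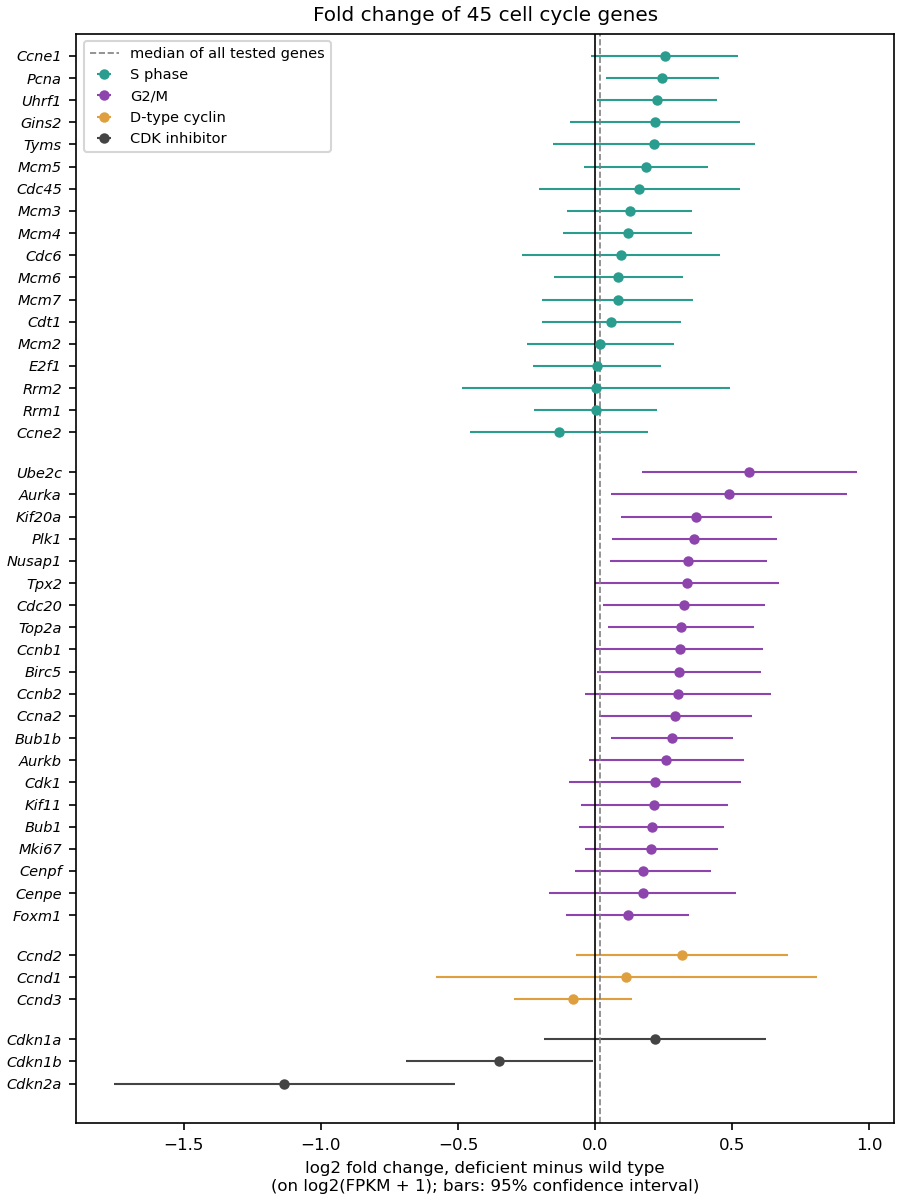
Log2 fold change (deficient minus wild type, on log2(FPKM + 1)) of each of the 45 genes with its 95% confidence interval, ordered within each group of genes, with the median of all tested genes as a dashed line. The G2/M genes lie at 0.12 to 0.56, the S phase genes at -0.13 to 0.25, and Cdkn2a stands apart at -1.13.

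S phase genes differed less. Of the 18, 17 had a positive log2 fold change, with a median of 0.11 and a range from -0.13 to 0.25, but only 13 did under median-ratio, upper quartile or quantile scaling, where Mcm2, Rrm1, Rrm2 and E2f1 turned negative. With limma 0 of 18 passed over all genes (lowest adjusted p = 0.260, voom also 0), and 2 were higher at an unadjusted p under 0.05, a share near the 9.86% of all tested genes. The groups did not overlap in 3, Pcna, Uhrf1 and Ccne1, all with the deficient libraries above, beside 11.8% of all tested genes. Deficient 4 was the highest library for 10 of the 18 and wild type 5 the lowest for 9. The median was 0.19 without wild type 2, 0.06 without wild type 5 and 0.07 without deficient 4.

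Pcna, the sliding clamp of DNA polymerase, was the most abundant of the 45 genes per length. It measured 100.1, 112.6 and 112.2 FPKM in the deficient tumours, compared with 96.5, 85.0 and 92.1 FPKM in the wild-type ones. All deficient libraries were above all wild-type ones, with means of 108.3 ± 7.10 and 91.2 ± 5.79 (SD, n = 3) and a log2 fold change of 0.25 (SE 0.09, limma adjusted p = 0.260). Uhrf1, which keeps DNA methylation through replication, measured 15.4, 15.6 and 13.5 FPKM in the deficient tumours, compared with 13.4, 11.8 and 12.3 FPKM in the wild-type ones (0.23, SE 0.09, adjusted p = 0.317). Deficient 5 and wild type 2 nearly met in this gene.

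The replicative helicase Mcm2 to Mcm7 showed small differences. Its 6 subunits lay between 0.02 (Mcm2) and 0.18 (Mcm5), with overlapping groups in each. Mcm2 measured 20.5, 18.1 and 16.4 FPKM in the deficient tumours, compared with 20.2, 17.9 and 16.1 FPKM in the wild-type ones, nearly the same 3 values in both groups. Its 95% confidence interval, -0.25 to 0.29, still allows a difference of the size seen in several G2/M genes. The loaders of this helicase, Cdc6 and Cdt1, were at 0.09 and 0.06, and its partners in the active complex, Cdc45 and Gins2, at 0.16 and 0.22. Cdc6 had the lowest FPKM of the 45 genes averaged over the 6 libraries, at 1.92 to 3.14 FPKM, from 358 to 594 fragments.

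Among the enzymes that supply nucleotides, tumours of one group spread more widely than the groups differed. Rrm2, the regulated subunit of ribonucleotide reductase, reached 36.2, 46.4 and 30.9 FPKM with deficient hosts, next to 48.6, 28.2 and 37.4 FPKM with wild-type hosts. The highest and the lowest library were both wild type, and the log2 fold change was 0.004 (SE 0.21, 95% confidence interval -0.49 to 0.49). Its partner Rrm1 was at 0.003 (95% confidence interval -0.22 to 0.23). Tyms, which makes thymidylate, was highest in deficient 5 (9.76 FPKM) and lowest in wild type 5 (5.43), with 0.21 as its log2 fold change (SE 0.16, adjusted p = 0.572).

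The 2 E-type cyclins, which activate Cdk2 at the start of replication, pointed in opposite directions. Ccne1 measured 4.09, 4.22 and 3.87 FPKM in the deficient tumours, compared with 3.81, 2.81 and 3.17 FPKM in the wild-type ones, without overlap (log2 fold change 0.25, SE 0.12, adjusted p = 0.357). Ccne2 reached 4.55, 3.80 and 3.79 FPKM with deficient hosts, next to 5.48, 4.52 and 3.68 FPKM with wild-type hosts, with overlap (-0.13, SE 0.14, adjusted p = 0.711). Neither difference exceeded the spread by the test, and that between the 2 genes was not tested. E2f1, the factor that drives this wave, was at 0.01 (95% confidence interval -0.23 to 0.24).

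Set against each other within each library, S phase genes were lower relative to G2/M genes in every deficient tumour. The mean log2(FPKM + 1) of the 18 S phase genes minus that of the 21 G2/M genes was -0.49, -0.52 and -0.70 for deficient tumours 3, 4 and 5, compared with -0.46, -0.30 and -0.40 for wild-type tumours 2, 3 and 5. The groups did not overlap, although deficient 3 and wild type 2 lay close together. The means were -0.57 ± 0.12 and -0.39 ± 0.08 (SD, n = 3), a difference of -0.18. Leaving out each library in turn gave differences between -0.23 and -0.12, the smallest without deficient 5, the library with the lowest value. No p is given, because the genes were chosen with results of these data known.

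**Figure D3:**
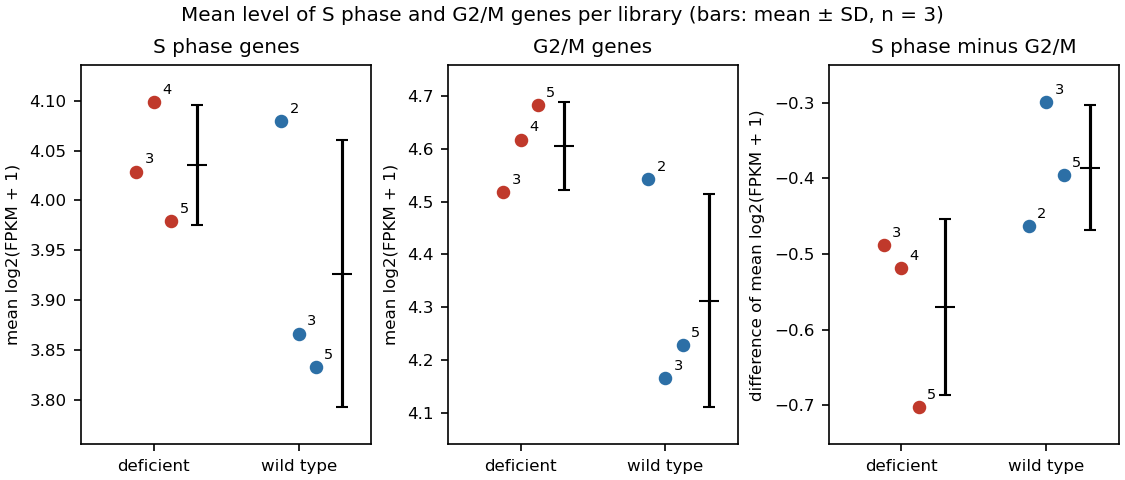
Mean log2(FPKM + 1) of the S phase genes (left), of the G2/M genes (middle) and the first minus the second (right) in each library, numbered by its label, with the group mean ± SD (n = 3). Wild type 2 lies among the deficient libraries in the first 2 panels, and in the right panel all deficient libraries lie below all wild-type ones.

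Other genes of the 2 phases, from lists that do not share genes with the 45, lay on the same sides. Of 67 further mitosis genes 63 had a positive log2 fold change, with a median of 0.19, and of 57 further replication genes 39 did, with a median of 0.06. Over all genes 0 of either list passed with limma. At an unadjusted p under 0.05, 15 of the 67 and 3 of the 57 were higher, beside 9.86% of all tested genes, so that the replication list lay below that share. In 13 of the 67 and 3 of the 57 the deficient libraries lay above all wild-type ones, beside the 11.8% of all tested genes given above. The replication list minus the mitosis list was -0.33, -0.32 and -0.42 for deficient tumours 3, 4 and 5, compared with -0.29, -0.17 and -0.20 for wild-type tumours 2, 3 and 5, once more without overlap. These libraries are the same ones, so the lists are not independent of each other.

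In the mitosis list the smallest p-values belonged to Cdca3, a regulator of mitotic entry (log2 fold change 0.33, limma adjusted p = 0.148), Espl1, the separase that cuts cohesin (0.36), Mad2l1, a spindle checkpoint protein (0.33), and Racgap1, a cytokinesis regulator (0.24). Espl1 reached 4.11, 3.90 and 3.99 FPKM with deficient hosts, next to 2.85, 2.53 and 3.32 FPKM with wild-type hosts, with the deficient libraries close together and above. In the replication list they belonged to Dut, which removes dUTP (0.53, adjusted p = 0.162), the clamp loader subunit Rfc4 (0.30) and the GINS subunits Gins1 (0.34) and Gins3 (0.22). Dut measured 70.5, 75.1 and 88.8 FPKM in the deficient tumours, compared with 64.5, 53.8 and 44.6 FPKM in the wild-type ones, the largest difference of that list.

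**Figure D4:**
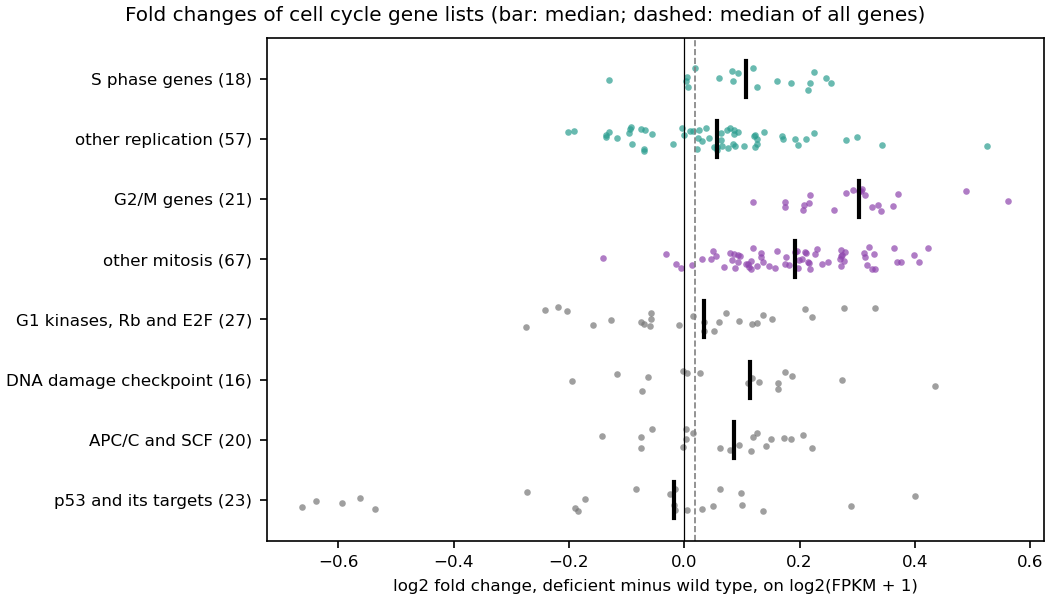
Log2 fold change (deficient minus wild type, on log2(FPKM + 1)) of every tested gene in 8 cell cycle lists, with the number tested in brackets, a bar at each median and a dashed line at the median of all genes. The mitosis lists have medians of 0.30 and 0.19 and the replication lists of 0.11 and 0.06, and 5 of the p53 targets lie below -0.5.

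The D-type cyclins, which link growth signals to the G1 kinases Cdk4 and Cdk6, did not share a pattern. Ccnd1 measured 107.1, 76.5 and 43.9 FPKM in the deficient tumours, compared with 80.3, 65.5 and 53.8 FPKM in the wild-type ones. The highest and the lowest of all 6 libraries were both deficient, and the log2 fold change of 0.11 had a wide interval (95% confidence interval -0.58 to 0.81). Its sign turned without deficient 3 (-0.18) and without wild type 5 (-0.03). Ccnd2 reached 17.0, 12.1 and 11.7 FPKM with deficient hosts, next to 12.3, 10.8 and 8.83 FPKM with wild-type hosts (0.32, SE 0.17, adjusted p = 0.425). Ccnd3 was the steadiest, at 28.6 to 35.0 FPKM in deficient and 32.3 to 33.6 in wild-type tumours (-0.08, SE 0.09, adjusted p = 0.734). Deficient 3 was the highest library for all 3 of these cyclins.

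**Figure D5:**
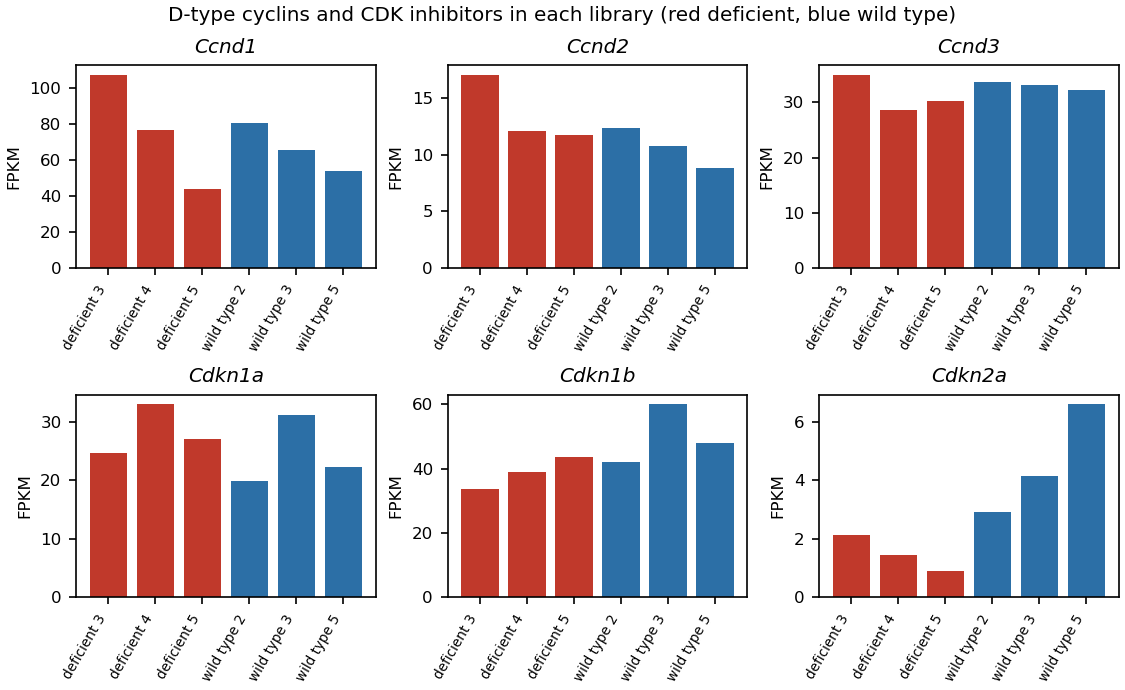
FPKM of the D-type cyclins (top) and of the CDK inhibitors (bottom) in each library, deficient in red and wild type in blue, with axes from 0. Ccnd1 spans 43.9 to 107.1 within the deficient group, and Cdkn2a is lower in every deficient library (0.888 to 2.14) than in any wild-type one (2.92 to 6.60).

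Of the CDK inhibitors, Cdkn2a had the largest difference of all 45 genes and Cdkn1b the next among genes lower in deficient tumours. Cdkn2a encodes p16, which blocks Cdk4 and Cdk6, and the p53 activator p19Arf. It measured 2.14, 1.46 and 0.888 FPKM in the deficient tumours, compared with 2.92, 4.16 and 6.60 FPKM in the wild-type ones, from 91, 68 and 38 fragments against 131, 184 and 292. All of its deficient values stood under the lowest wild-type value, an arrangement in 8.31% of all tested genes. The means were 1.49 ± 0.626 and 4.56 ± 1.87 (SD, n = 3), with a log2 fold change of -1.13 (SE 0.27, 95% confidence interval -1.76 to -0.51) that did not pass over all genes (limma adjusted p = 0.109). The log2 fold change was between -1.36 and -0.88 when each library was left out, and -1.55 with a pseudocount of 0.1. The table has 1 value for this gene, so the transcripts of the 2 proteins were not separated.

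Cdkn1b (p27), the inhibitor of Cdk2 that is high in resting cells, reached 33.8, 39.1 and 43.6 FPKM with deficient hosts, next to 42.1, 60.1 and 47.9 FPKM with wild-type hosts. Only deficient 5 and wild type 2 overlapped, and the log2 fold change was -0.35 (SE 0.15, adjusted p = 0.319). Cdkn1a (p21), the inhibitor induced by p53, stood the other way at 0.22 (SE 0.17, adjusted p = 0.604), with 24.7, 33.0 and 27.1 against 19.9, 31.1 and 22.2 FPKM and overlapping groups. The 4 further inhibitors on a separate list were all slightly lower, led by the Cdkn2a neighbour Cdkn2b (-0.27, adjusted p = 0.473), with 0 called and overlapping groups.

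Of 23 genes of p53 and its targets 14 were lower, with a median of -0.02 and 0 called, and 5 had an unadjusted p under 0.05, all lower, beside 5.25% of tested genes. The 4 smallest p-values were those of Plk2, Eda2r, Sesn1 and Trp53inp1, all without overlap between groups. Log2 fold changes were -0.56 for the kinase Plk2 (limma adjusted p = 0.086) and -0.59 for the receptor Eda2r (0.090). They were -0.64 for the stress protein Sesn1 (0.180) and -0.54 for Trp53inp1 (0.248). Of the 23 genes, 5 showed no overlap, each with the deficient group lower, beside 8.31% of all tested genes. Deficient 4 and wild type 2 nearly met in Sesn1 (32.4 and 33.0 FPKM) and in Trp53inp1 (20.5 and 20.8 FPKM). Plk2 reached 27.0, 28.2 and 26.5 FPKM with deficient hosts, next to 48.8, 35.3 and 39.2 FPKM with wild-type hosts.

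Of 27 tested G1 kinases, Rb family and E2F genes 15 were higher, with a median of 0.03 and 0 called. The pocket protein Rbl2 (p130), which holds cell cycle genes off in resting cells, measured 15.7, 16.4 and 16.4 FPKM in the deficient tumours, compared with 18.5, 19.4 and 21.5 FPKM in the wild-type ones, without overlap (-0.27, SE 0.09, adjusted p = 0.202). E2f2 (0.33), Myc (0.28) and Lin52 (-0.22), a subunit of MuvB, were the others with the smallest p-values. The groups failed to overlap in 11 of these 27 genes, 5 with the deficient libraries above and 6 below, beside 20.1% of all tested genes. In the DNA damage checkpoint list 11 of 16 were higher (median 0.11), led by the histone variant H2ax at 0.44 (adjusted p = 0.199), then Cdc25b (0.27), Chek1 (0.18) and Wee1 (-0.19). In the list of the ubiquitin ligases APC/C and SCF 15 of 20 were higher (median 0.09), with Anapc13 (0.18), Ccnf (0.21), Cdc27 (-0.14) and Fbxo5 (0.22) first by p. With limma 0 genes of these lists passed over all genes.

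Of the marker lists for other cells, that of fibroblasts split the libraries in its sum as the G2/M genes did. The summed FPKM of 7 fibroblast markers (6 of 7 with a lower mean in deficient tumours) was 2136, 2638 and 1704 for deficient tumours 3, 4 and 5, compared with 1934, 4075 and 5511 for wild-type tumours 2, 3 and 5. Wild type 3 and 5, the libraries lowest in G2/M genes, were thus the highest in this sum, and wild type 2 lay in the deficient range. Single markers differed in this. In Col1a1, Col1a2, Col3a1 and Pdgfra wild type 2 lay within or below the deficient range. In Dcn and Lum it lay above every deficient library, at 573.5 and 416.2 FPKM. Pdgfrb did not split, at 36.6 to 52.6 FPKM in deficient and 42.3 to 47.4 FPKM in wild-type tumours. The epithelial keratin Krt19, picked with its values known, divided the wild-type libraries likewise. It was at 44.9, 12.01 and 10.7 FPKM in wild type 2, 3 and 5 and 36.9 to 40.2 FPKM in the deficient tumours. The other epithelial markers did not show this division. Of them only Krt8 was highest in wild type 2 among the wild-type libraries, with deficient 5 below all of these. Krt7 measured 23.2, 25.7 and 25.2 FPKM and Krt18 219.0, 243.7 and 205.3 FPKM in wild type 2, 3 and 5.

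In their sums, lymphocyte markers followed the group labels instead, with wild type 2 below every deficient library. Among single markers Cd4 and Cd79a did not. In Cd4 wild type 2 lay above deficient 4 (4.61 and 4.13 FPKM), and in Cd79a above deficient 3 (1.64 and 1.60 FPKM). The sum of 7 T cell markers (6 of 7 higher) was 41.6 to 66.8 in deficient and 22.4 to 32.3 in wild-type tumours, with 25.6 in wild type 2. For 5 NK cell markers (5 of 5 higher) it was 8.67 to 11.2 and 2.03 to 2.99, with 2.86 in wild type 2, and for 6 B and plasma cell markers (6 of 6 higher) 20.8 to 112.8 and 7.21 to 15.4, with 9.69 in wild type 2. Adipocyte markers (7 of 8 higher) summed to 142.0 to 516.3 and 57.0 to 160.4, and macrophage markers (9 of 9 higher) to 4056 to 6956 and 3907 to 4422, both with overlap. Much of the macrophage sum was Lyz2 alone, at 1918 to 4205 FPKM in deficient and 2019 to 2411 FPKM in wild-type tumours. Taken singly, 5 of 9 macrophage and 3 of 8 adipocyte markers had all deficient libraries above, beside 11.8% of all tested genes. With limma 0 of either list were called. The 8 epithelial markers (6 of 8 higher), a sum made up mostly of Krt8 and Krt18, came to 471.0 to 650.4 in deficient and 496.3 to 586.1 in wild-type tumours. The groups also overlapped in the sums of neutrophil (162.1 to 340.5 and 156.3 to 273.8), endothelial (33.7 to 57.2 and 32.4 to 49.1), skeletal muscle (3.09 to 25.4 and 3.56 to 47.4), keratinocyte (1.58 to 2.81 and 0.966 to 2.13) and erythroid markers (20.2 to 24.3 and 22.1 to 28.0). No marker of these lists was at 0 in every library. Their part in the levels of the cell cycle genes was not tested.

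Exons of 16 of the 45 genes overlap those of another gene in GENCODE M21, in 14 cases on the opposite strand, among them Kif20a, Cdc20, Nusap1, Ccna2, Mcm7 and Ccnd1. Whether the counting used strand is not given in the sources used here, so reads from such stretches may belong to either gene.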

How the data were processed

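Total RNA of each tumour, isolated with TRIzol, went into VAHTS Universal V6 libraries that were read in pairs of 150 bases, per the labels' protocols. HISAT2, HTSeq and R 3.2.0 are named, without roles, per the submitters' processing notes. Not given in the sources used here are the genome build, the annotation and the strand setting. The authors deposited 1 table with 1 column of values per library. Its unit is not named, and the deposited values were taken to be FPKM, because dividing them by the value of 1 fragment gave whole numbers in 95.3% of genes and because 473 genes with a matching GENCODE M21 exon length set totals of 37500000 to 41100000 fragments.

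Genes with a mean FPKM of at least 0.5 (12257) entered a limma fit (limma 3.58.1, R 4.3.3) on log2(FPKM + 1), with a variance trend, a group term and Benjamini-Hochberg adjustment over all of them, and an adjusted p under 0.05 was a call. The fit was also run on simulated data with independent genes. The changes planted there were larger than the difference of every member but Cdkn2a, so that run does not bear on differences of this size. All p-values are two-sided. The members and lists were chosen with earlier results of these data known. Named genes are the 45 members, Anxa1, and the 4 genes of smallest p in each further list, with Ddx3y, Mycn and Tnnc2 added after their values were seen. Cell type markers named singly were picked from their lists with their values known. Intervals cover the spread between samples. Alternatives were other pseudocounts (0.1 and 0.5), filters, scalings, a replicate block, no variance trend and leaving out each library. Voom on recovered fragments was added after seeing the data.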

Additional observations from a re-analysis of the deposited data

How the results depend on the processing

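With 3 tumours a group, differences of the size seen in most of these genes did not pass over all genes. In the limma fits that left out each library in turn 0 of 45 members were called in each, while the calls over all genes lay between 10 (without wild type 3) and 344 (without deficient 4), against 148. With no filter on low values 18 genes were called, and voom, chosen after seeing the data, called 93. The median log2 fold change of the G2/M genes lay between 0.22 and 0.42 and that of the S phase genes between 0.06 and 0.19 when each library was left out. Of the 45 genes, 10 changed sign under at least 1 of 16 other settings. Median-ratio, upper quartile and quantile scaling gave -0.0047, -0.011 and -0.0089 for Mcm2, -0.022, -0.029 and -0.048 for Rrm1, -0.020, -0.027 and -0.048 for Rrm2, and -0.015, -0.022 and -0.012 for E2f1. Leaving out 1 library moved Mcm2 between -0.060 and 0.098, Mcm6 between -0.012 and 0.14, Rrm1 between -0.085 and 0.055, Rrm2 between -0.19 and 0.19, Cdc6 between -0.059 and 0.19, Cdt1 between -0.029 and 0.13, E2f1 between -0.064 and 0.046 and Ccnd1 between -0.18 and 0.46.

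Numbers 3 and 5 occur in both groups. Libraries that share a number had correlations of deviations of -0.0897 and -0.00847 across genes. Pairs with different numbers had -0.208 to 0.224. Deviations from the mean of 3 libraries are tied to each other, so these values cannot decide whether a shared number means a pair. With the replicate block, 987 genes (8.05%) and 3 members were called, Aurka (0.71, limma adjusted p = 0.022), Ube2c (0.79, 0.014) and Cdkn2a (-1.36, 0.022), and signs turned for Rrm1 (-0.055), Cdt1 (-0.059), Ccne2 (0.020) and Cdkn1a (-0.023). That fit leaves 1 residual degree of freedom per gene. Numbers 2 and 4 occur in 1 library each, so its group difference comes only from the libraries numbered 3 and 5. Wild type 2, which lay near the deficient libraries in the G2/M genes, and deficient 4 do not enter that difference.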

Other observations

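Mycn, a proto-oncogene of the Myc family on the list of G1 regulators, was below the filter and was singled out after its values were seen. It measured 1.06, 0.797 and 0.0409 FPKM in the deficient tumours, compared with 0.00975, 0.00990 and 0 FPKM in the wild-type ones, from 103, 85 and 4 fragments against 1, 1 and 0. The signal lay almost wholly in deficient 3 and 4. Myc, far more abundant, reached 50.1, 52.3 and 44.6 FPKM with deficient hosts, next to 46.5, 36.8 and 37.7 FPKM with wild-type hosts.

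Fold changes were also set beside the promoter motifs, as a description. Within the G2/M genes the median log2 fold change was 0.29 in the 12 with a CHR in the promoter window and 0.31 in the 4 without. Over all tested genes with a window, the median was 0.04 in 1626 genes with a CHR and 0.02 in 8155 without. For the E2F motif these medians were 0.02 in 648 genes with it and 0.02 in 9133 without.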
